A study of Mus musculus with 6 samples.

Results

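The genes described here carry out glucose uptake, glycolysis, lactate production and export, the control of pyruvate entry into mitochondria, and glycogen turnover, and they were followed in fetal gonads of wild-type and Sox9 mutant mice. They were taken by name from a list of 46 symbols, drawn up with earlier results of these data known, and 41 of the 19937 genes measured on the arrays were members. Where several probe sets were annotated to a gene alone, the brightest over the 6 arrays stood for it. Of the other 5 symbols, Gpi1, Eno1 and Pfkfb1 were matched by no probe set in the annotation used here, Gapdh was matched only by 11 probe sets that it shares with other genes, and Pkm2 is an older symbol of Pkm.

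RNA came from gonads at E13.5 (embryonic day), dissected free of the mesonephros, from mice on a mixed background of C57BL6/J crossed with 129. Wild-type pools of 6 gonads were hybridised on 3 arrays, numbered 1, 2 and 5, and mutant pools of 12 gonads, genotype Sox9flox/flox; Sf1:creTr/+, on a further 3, numbered 3, 4 and 6. In the mutant, a Cre recombinase under control of Sf1 (Nr5a1), a gene of the somatic gonad, acts on floxed alleles of Sox9, the transcription factor that directs Sertoli cell differentiation. No group carried Cre or the floxed alleles alone, pool size went with genotype, and the labels give no embryo sex and no litter, so p-values measure the spread between these pools, which may be partly technical.

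Glucose enters cells through transporters of the Slc2a family and is trapped as glucose 6-phosphate by hexokinases. Glycolysis splits it and oxidises it to pyruvate, which either becomes lactate, leaving the cell through monocarboxylate transporters of the Slc16a family, or enters mitochondria through pyruvate dehydrogenase. In the adult testis, Sertoli cells are known for making lactate from glucose and passing it to germ cells, and glycogen is a local store of the same sugar. Many glycolytic genes are targets of the hypoxia-inducible factors.

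Values are log2 RMA values, and differences are mutant minus wild type, with moderated standard errors from limma and p-values adjusted over all 28187 probe sets tested (Benjamini-Hochberg; threshold 0.05). A background mark of 6.67 log2 was taken from olfactory and vomeronasal receptor probe sets, and near or below it RMA values compress differences. Sox9 fell by 1.31 ± 0.14 log2 (SE; limma adjusted p = 0.00124), while Nr5a1 differed by -0.02 log2 (limma adjusted p = 0.971), a sign that turned under some settings. Of 12 Sertoli markers 10 fell, Sox9 itself among them, and of 5 measured Leydig markers 5 fell. The mean of the Sertoli markers, Sox9 included, was 9.70 to 9.76 log2 on wild-type arrays and 7.26 to 8.36 on mutant arrays, highest on mutant 4. All 8 pregranulosa markers rose, as did 6 of 8 meiotic germ cell markers (median over the 8, 2.44 log2), whose mean was 5.50 to 6.21 log2 on wild-type and 7.45 to 9.28 on mutant arrays; of 8 general germ cell markers 2 fell. Of 7 measured mesonephric markers, Emx2 and Gata3 rose, Lhx1 fell and 4 did not pass, and their mean was 7.08 to 7.19 log2 on wild-type and 7.51 to 7.55 on mutant arrays. In pooled tissue, fewer cells of a type and less RNA per cell cannot be told apart, and the part of these cell types in the results that follow was not tested. Wild type 5 stood apart by its liver transcripts: 11 liver markers averaged 8.39 log2 there and 6.09 to 6.34 on the 5 other arrays. The mean of 7 measured erythroid markers was also highest there, at 8.39 log2 against 7.60 to 7.98 on the others.

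The changes among the glucose and lactate genes were modest in size. Their median absolute difference was 0.20 log2, against 0.15 over all genes. With both group means above the background mark, it was 0.20 log2 for members and 0.17 for all such genes. Of 41 members, 5 fell, 0 rose and 36 did not pass in the limma fit, with the falls in Slc16a7, Hk2, Pgam2, Slc2a1 and Pygm, between 1.42-fold and 1.72-fold. Over all genes, 4.30% fell and 2.64% rose, beside 12.2% of members that fell; with both group means above the background mark, 4 of 37 members (10.8%) and 5.78% of 12548 genes fell. At an unadjusted p under 0.05, 11 members were lower and 3 higher, 34.1% of the members together and 21.7% of all genes. With both group means above the background mark, these shares were 35.1% and 27.3%. No member differed by more than 1 log2, and among the 36 that did not pass, the 95% intervals of the differences ran from -0.82 at the lowest to 0.73 log2 at the highest. The 5 calls lie close to the threshold: with the 6573 rows of the array's control block kept in the fit, 0 members passed (limma adjusted p of these genes 0.0559 to 0.0815), and leaving out 1 array left 0 (wild type 1 or 5, or mutant 3), 1 (mutant 4), 2 (wild type 2) or 3 (mutant 6). Array numbers 1 to 4 alone gave 0 falls, and numbers 5 and 6 as a block, which no label names as a batch, gave 7. Wild type 5, the array with the liver transcripts, was the highest of the 6 for Slc2a1, Hk2, Pgam2 and Pygm, and wild type 1 for Slc16a7. The part of the liver transcripts in these values was not tested.

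**Figure D1:**
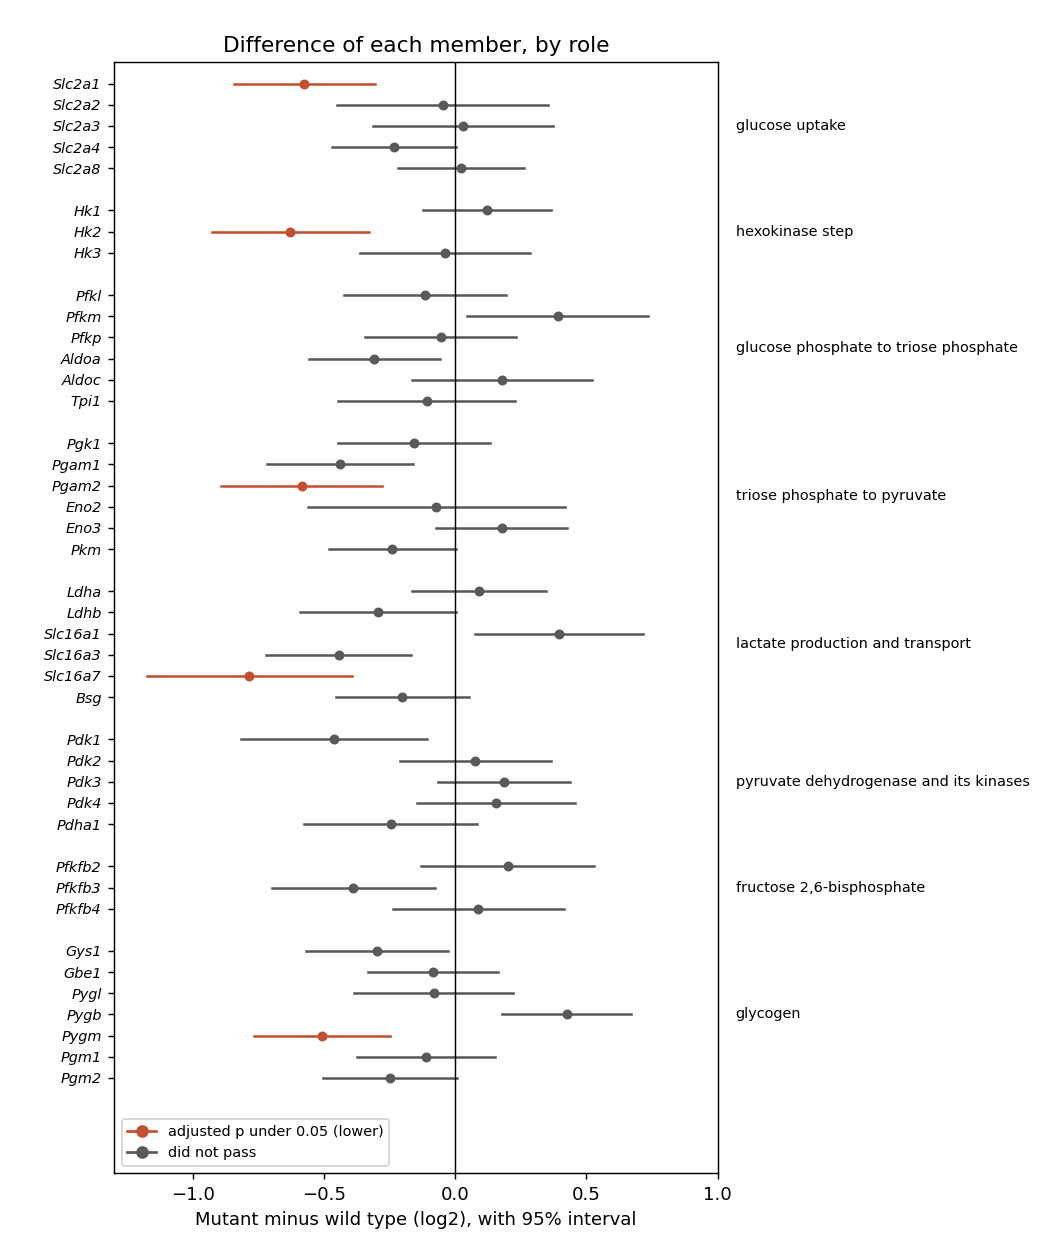
Difference between mutant and wild type for each of the 41 members (log2, horizontal axis), grouped by role; points are limma differences and lines their 95% intervals. The 5 members that fell are in red, at -0.51 to -0.78 log2, and the highest difference is that of Pygb at 0.42.

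The members as a group lay slightly to the lower side. Their median difference was -0.11 log2, against 0.004 over all genes and -0.04 over the 12548 genes with both group means above the background mark. In 15 members all 3 mutant values lay below all 3 wild-type values, 36.6% of the members, where 16.6% of all genes did so; in 4 members they lay above, where 12.1% of all genes did. Among genes with both means above the background mark, these shares were 37.8% and 23.1% for mutant values below. Array by array, the median deviation of the members from their wild-type mean was 0.04, -0.12 and 0.04 log2 on wild type 1, 2 and 5, and -0.18, -0.15 and -0.05 on mutants 3, 4 and 6. Mutant 6 therefore lay within the range of the wild-type arrays in this median, and mutants 3 and 4 below it.

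**Figure D2:**
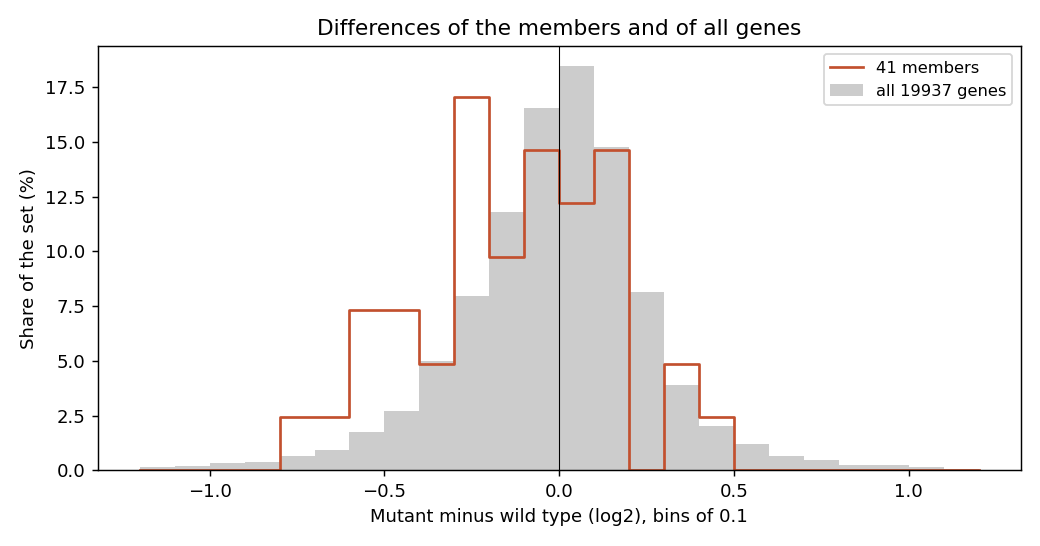
Distribution of mutant minus wild type (log2, bins of 0.1) for the 41 members (red line) and for all 19937 genes (grey bars), each as a share of its set in percent. The members' median of -0.11 lies left of that of all genes, at 0.004. No member lies beyond 1 log2 on either side, where 1.94% of all genes do.

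Among the glucose transporters, the basal transporter was the one that fell. Slc2a1 (GLUT1), which supplies most fetal cells with glucose, measured 10.61, 10.44 and 10.70 log2 on wild type 1, 2 and 5, and 10.02, 10.10 and 9.90 on mutants 3, 4 and 6. Every mutant array was below every wild-type array, and Slc2a1 fell by 0.58 ± 0.12 log2 (SE), 1.49-fold (limma adjusted p = 0.0246). The call remained without wild type 2 (0.0436) and was lost without any other single array (up to 0.103). Slc2a3 (GLUT3), the high-affinity transporter of neurons, did not pass, with means of 9.28 ± 0.16 and 9.31 ± 0.25 log2 in wild type and mutant (SD, n = 3 each), nor did the intracellular transporter Slc2a8 at 7.45 ± 0.07 and 7.47 ± 0.03. Slc2a4, the insulin-regulated GLUT4 of muscle and fat, was tight within groups, at 7.65 to 7.66 log2 on the wild-type arrays and 7.35 to 7.48 on the mutant arrays; the groups did not overlap, but the difference of -0.23 ± 0.11 log2 (SE) did not pass (limma adjusted p = 0.266).

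Slc2a2 (GLUT2), the transporter of hepatocytes, was close to background and highest on a single array. It measured 7.25 log2 on wild type 5, against 6.68 and 6.54 on wild type 1 and 2 and 6.71 to 6.85 on the mutants. Wild type 5 is also the array with the liver transcripts, where Alb measured 11.42 log2 against at most 6.60 elsewhere; their part in the Slc2a2 value was not tested. With that array the difference was -0.05 log2, and without it 0.17 log2, and it did not pass either way (limma adjusted p = 0.927 and 0.568).

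The hexokinase step showed a fall in the inducible enzyme. Hk2, the hexokinase of muscle and of tissues with high glycolysis, measured 9.20, 9.18 and 9.34 log2 on wild type 1, 2 and 5 and 8.38, 8.68 and 8.77 on mutants 3, 4 and 6. All mutant arrays lay below all wild-type arrays, and Hk2 fell by 0.63 ± 0.13 log2 (SE), 1.55-fold (limma adjusted p = 0.0261), with the call kept without mutant 6 only among single arrays left out (adjusted p up to 0.0917). Hk3, the hexokinase of leukocytes, had both means below the background mark.

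Hk1, the housekeeping hexokinase, was read by a pair of probe sets that differ in what they can be taken for. The brighter one, which the rule selects, measured 13.07 to 13.29 log2 over the 6 arrays, is annotated with 1 accession, and lies among 8 neighbouring identifiers of which 0 belong to chromosome 10, where Hk1 is; most are on chromosome 14. The other is annotated with 8 accessions and all 8 neighbours are on chromosome 10. It measured 8.72, 8.71 and 8.77 log2 on wild type 1, 2 and 5, and 8.40, 8.63 and 8.58 on mutants 3, 4 and 6. The 2 probe sets gave differences of opposite sign, 0.12 and -0.20 log2, and neither passed (limma adjusted p = 0.622 and 0.397). The direction of Hk1 thus depends on the probe set. A further 15 probe sets that Hk1 shares with other genes were not used for it.

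The steps from glucose phosphate to triose phosphate held no called member. Phosphofructokinase, the committed step of glycolysis, has 3 subunit genes: Pfkl differed by -0.12, Pfkp by -0.06 and Pfkm by 0.39 ± 0.15 log2 (SE; limma adjusted p = 0.200 for Pfkm). Pfkm, the muscle subunit, measured 9.56, 9.36 and 9.79 log2 in wild type and 9.94, 9.77 and 10.18 in the mutant, and mutant 4 lay just under wild type 5, so the groups overlap. Aldolase cuts the sugar into 2 trioses. Aldoa, its main form, measured 12.19, 12.00 and 12.20 log2 in wild type and 11.81, 11.82 and 11.84 in the mutant. The mutant values, with an SD of 0.02 log2, were all below wild type, yet the difference of -0.31 ± 0.11 log2 did not pass (limma adjusted p = 0.162). Aldoc, the form of brain, at 8.16 ± 0.09 and 8.33 ± 0.28 log2, and the isomerase Tpi1, at 11.48 ± 0.23 and 11.37 ± 0.17 (SD, n = 3 each), overlapped between groups.

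From triose phosphate to pyruvate, the muscle form of phosphoglycerate mutase fell. Pgam2 measured 7.64, 7.50 and 7.92 log2 on wild type 1, 2 and 5 and 7.00, 7.16 and 7.15 on mutants 3, 4 and 6. It fell by 0.59 ± 0.14 log2 (SE), 1.5-fold (limma adjusted p = 0.0380), and among single arrays left out its call was kept without wild type 2 alone (up to 0.136). Of 10 skeletal muscle markers 0 passed in the same fit, and 1 had an unadjusted p under 0.05, beside 21.7% of all genes. Their mean was 7.02 to 7.22 log2 on wild-type and 6.89 to 7.12 on mutant arrays. Pgam1, the general form, lay at 11.14, 10.91 and 11.18 log2 in wild type and 10.51, 10.69 and 10.70 in the mutant, without overlap, and its difference of -0.44 ± 0.12 log2 missed the threshold (limma adjusted p = 0.0771). It passed under 4 of 19 other settings, namely either filter on dim probe sets, trend and robust moderation, and numbers 5 and 6 as a block (down to 0.0357), and under none that left out an array. Its single probe set also lies among identifiers of another chromosome (0 of 8 neighbours on chromosome 19).

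The remaining enzymes of this stretch did not pass. Pgk1, the first ATP-yielding enzyme, differed by -0.16 ± 0.13 log2 and Eno3, the muscle enolase, by 0.18 ± 0.11. Eno2, the neuronal enolase, lay below the background mark in both groups. Pkm, the pyruvate kinase of most tissues, measured 11.74 to 11.80 log2 in wild type and 11.45 to 11.61 in the mutant, with no overlap and a difference of -0.24 ± 0.11 log2 (SE; limma adjusted p = 0.262). A dimmer Pkm probe set among identifiers of chromosome 5 gave -0.15 log2.

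**Figure D3:**
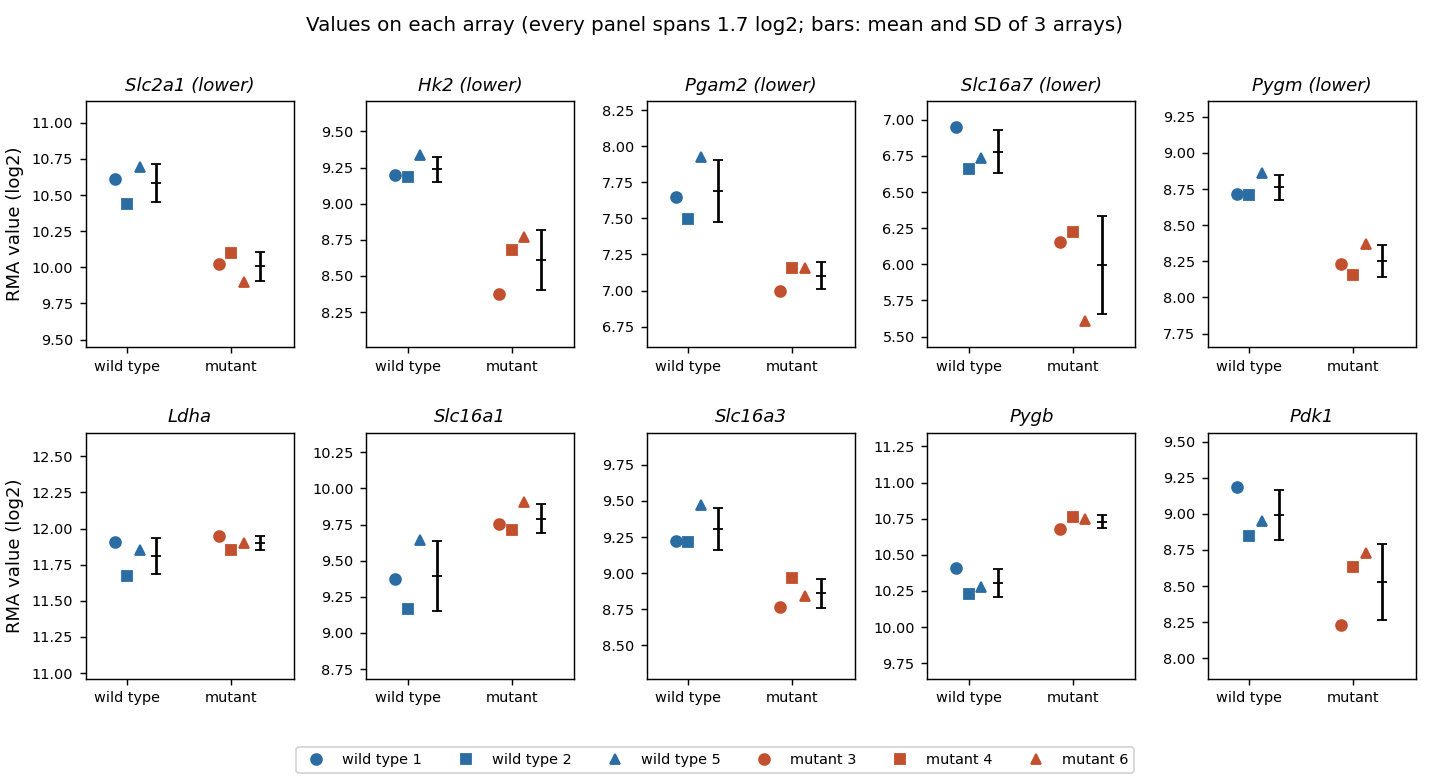
Values of 10 members on each array (log2, vertical axis, the same span in every panel), with wild-type arrays in blue and mutant arrays in red; black bars are the mean and SD of 3 arrays. In the 5 members that fell, all mutant arrays lie below all wild-type arrays; Ldha overlaps between groups, and Slc16a1 and Pygb lie above wild type on all mutant arrays without passing the test.

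Lactate dehydrogenase did not pass in either form. Ldha, which favours lactate formation, measured 11.91, 11.67 and 11.85 log2 on wild type 1, 2 and 5, and 11.95, 11.85 and 11.90 on mutants 3, 4 and 6, a difference of 0.09 log2 with a 95% interval of -0.17 to 0.35 (limma adjusted p = 0.742). Ldhb, the heart form, measured 11.10, 10.88 and 11.14 in wild type and 10.59, 10.72 and 10.92 in the mutant, a difference of -0.30 ± 0.13 log2 (SE; limma adjusted p = 0.262), with mutant 6 just above wild type 2. A second Ldhb probe set, among identifiers of chromosome 19, gave -0.18 log2.

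Of the lactate transporters, Slc16a7 alone passed the test. Slc16a7 (MCT2), a high-affinity lactate and pyruvate carrier, measured 6.95, 6.66 and 6.73 log2 on wild type 1, 2 and 5, and 6.16, 6.22 and 5.61 on mutants 3, 4 and 6, and fell by 0.78 ± 0.17 log2 (SE; 1.72-fold, limma adjusted p = 0.0313). This was the lowest difference of all members, at a dim probe set. The wild-type mean of 6.78 was just above the background mark and the mutant mean of 6.00 under it. The fold is therefore uncertain and may be understated. Either filter on dim probe sets left Slc16a7 out. Its call was kept without mutant 4 (0.0385) or mutant 6 (0.0409) and lost without any other single array (up to 0.138). Slc16a3 (MCT4), the lactate exporter of glycolytic cells, measured 9.23, 9.22 and 9.47 in wild type and 8.77, 8.97 and 8.84 in the mutant, a difference of -0.45 ± 0.12 log2 that missed the threshold (limma adjusted p = 0.0727). It passed under the same 4 settings as Pgam1 (down to 0.0334), and under none that left out an array. Slc16a1 (MCT1), the widespread carrier, measured 9.37, 9.16 and 9.64 log2 in wild type, and 9.75, 9.72 and 9.90 in the mutant. The mutant arrays were all above wild type, and the difference of 0.40 ± 0.14 log2 did not pass (limma adjusted p = 0.162). Bsg (basigin), the chaperone that brings MCT1 and MCT4 to the membrane, differed by -0.20 ± 0.11 log2, its mutant values all below wild type.

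Pyruvate dehydrogenase and its kinases, which switch it off, held no called member. Pdk1, the kinase induced by hypoxia, measured 9.19, 8.84 and 8.95 log2 on wild type 1, 2 and 5 and 8.23, 8.63 and 8.73 on mutants 3, 4 and 6. The groups did not overlap, with mutant 3 standing lowest, and the difference of -0.46 ± 0.16 log2 did not pass (limma adjusted p = 0.142). Pdk2 differed by 0.08 and Pdk3 by 0.19 log2, Pdk4 lay below the background mark in both groups, and Pdha1, a catalytic subunit of the complex, differed by -0.25 ± 0.15 log2. Of the 3 measured Pfkfb genes, whose enzymes set the level of fructose 2,6-bisphosphate, the activator of phosphofructokinase, Pfkfb3 measured 8.32, 8.39 and 8.32 log2 in wild type and 7.72, 7.94 and 8.20 in the mutant. Its mutant values were all lower but spread widely, and the difference of -0.39 ± 0.14 log2 did not pass (limma adjusted p = 0.154); Pfkfb2 and Pfkfb4 differed by 0.20 and 0.09 log2, with overlap.

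Glycogen phosphorylase releases glucose 1-phosphate from glycogen, and of its 3 forms that of muscle fell. Pygm, the muscle form, measured 8.71, 8.71 and 8.86 log2 on wild type 1, 2 and 5 and 8.23, 8.15 and 8.37 on mutants 3, 4 and 6, and fell by 0.51 ± 0.11 log2 (SE; 1.42-fold, limma adjusted p = 0.0337). Its call was kept without mutant 6 and lost without any other single array (up to 0.122) or with a further quantile normalization (0.0597). Pygb, the brain form, measured 10.41, 10.23 and 10.28 log2 in wild type and 10.68, 10.76 and 10.75 in the mutant. All mutant values were above wild type, and the difference of 0.42 ± 0.11 log2, the highest among members, missed the threshold by little (limma adjusted p = 0.0576). It passed under 6 of 19 other settings, and under none that left out an array. Pygl, the liver form, overlapped at 8.37 ± 0.11 and 8.28 ± 0.20 log2 (SD, n = 3 each).

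The glycogen-making genes did not pass. Gys1, the glycogen synthase outside liver, lay below wild type on all mutant arrays, at 8.70 to 8.94 against 9.03 to 9.25 log2, with a difference of -0.30 ± 0.12 (SE; limma adjusted p = 0.210). The branching enzyme Gbe1 differed by -0.09 log2, and the phosphoglucomutase genes Pgm1 and Pgm2 by -0.11 and -0.25 ± 0.11 log2. In mouse annotations the symbols Pgm1 and Pgm2 have been exchanged over time; they are used here as in the GRCm38.p6 gene table.

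**Figure D4:**
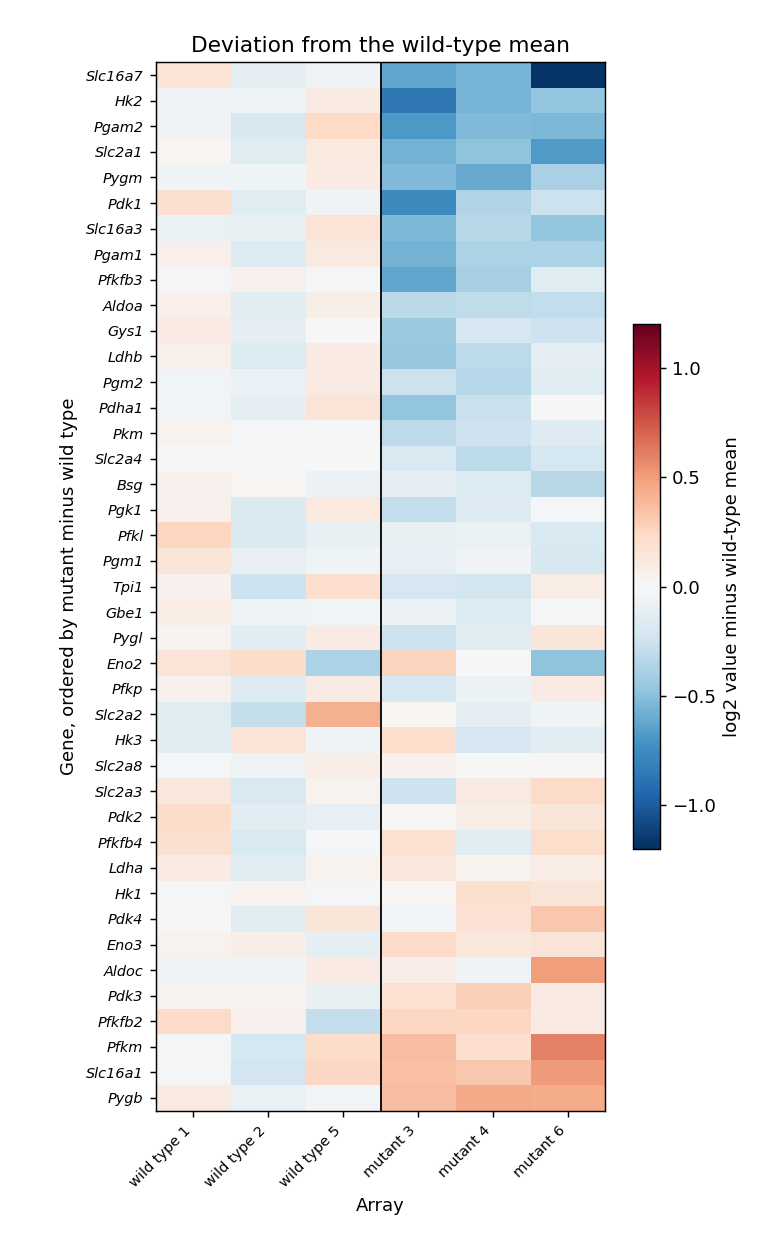
Deviation of each member from its wild-type mean on each array (log2, colour scale), with genes ordered by their difference; the line divides wild type from mutant. The upper rows are blue on all 3 mutant arrays, and Slc2a2 is high on wild type 5 alone.

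Several genes of one step were compared with each other within each array, to ask whether they changed unequally. The log2 difference between the genes of a pair was taken per array for 7 measured pairs of 8 listed. Between mutant and wild type it changed by 0.84 log2 for Slc16a1 over Slc16a3, by 0.75 for Hk1 over Hk2, by 0.39 for Ldha over Ldhb, and by -0.61 for Slc2a1 over Slc2a3, -0.51 for Pygl over Pygb and -0.49 for Aldoa over Aldoc. In each of these 6 pairs the groups did not overlap. This gives an exact permutation p = 0.1, the smallest that 3 against 3 arrays allow (2-sided, adjusted over the 7 pairs 0.117), so no pair could pass. All of the 6 but Ldha over Ldhb hold a gene whose groups did not overlap on its own. How often other gene pairs separate was not computed. Among single genes, 12.1% lay above and 16.6% below without overlap. Pfkl over Pfkp differed by -0.06 (exact permutation p = 0.8). With the Hk1 probe set on chromosome 10, the change of Hk1 over Hk2 was 0.43 log2.

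Some other genes of the pathway changed by more than any member. Over that whole set, though, the median absolute difference was 0.14 log2, against 0.20 over the members. Of 106 measured genes in related lists, 8 rose, 5 fell and 93 did not pass, with a median of -0.04 log2; 7.55% rose, against 2.64% of all genes, and 4.72% fell, against 4.30%. Gpd2, the mitochondrial glycerol 3-phosphate dehydrogenase of the shuttle that carries glycolytic electrons into mitochondria, measured 7.48, 7.39 and 7.49 log2 on wild type 1, 2 and 5 and 8.47, 8.46 and 8.42 on mutants 3, 4 and 6, and rose by 0.99 ± 0.10 log2 (SE; 1.99-fold, limma adjusted p = 0.00107). Fbp1, a fructose bisphosphatase of gluconeogenesis, which opposes phosphofructokinase, measured 7.52, 7.15 and 7.32 in wild type and 6.25, 6.21 and 6.27 in the mutant, and fell by 1.09 ± 0.12 log2 (SE; 2.12-fold, limma adjusted p = 0.00162). Its mutant values were under the background mark, so this fold is uncertain too. Both genes passed in all 6 fits that left out an array, unlike the 5 members; of the 13 genes, Adm and Kdm3a did so too, Tkt passed in 5 (0.0573 without wild type 2) and the other 8 in at most 2 (limma adjusted p up to 0.173).

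Among 34 measured genes of glycolysis, gluconeogenesis and sugar or monocarboxylate transport outside the member list, 3 rose and 2 fell. Over all genes 2.64% rose and 4.30% fell, and each list of this paragraph stands beside those shares. Beside Gpd2 and Fbp1, G6pc3, a widely expressed glucose 6-phosphatase, fell by 0.55 log2, and Slc16a10, which carries aromatic amino acids rather than lactate, rose by 0.73 from a wild-type mean of 6.41, under the background mark. Pgk2, the germ cell form of phosphoglycerate kinase, named because the plot shows it, rose by 0.50 log2 with all values below the background mark. Of 20 measured glycogen genes, the phosphorylase kinase subunits Phka1 and Phkg1 rose by 0.60 and 0.65 log2, the latter below the background mark, and Ppp1r3c, a subunit that brings a phosphatase to glycogen, fell by 0.74 to a mutant mean of 6.61, just under it. The pentose phosphate list had 1 of 9 higher and 1 lower: Tkt, the transketolase, rose by 0.70 ± 0.13 log2 (SE; limma adjusted p = 0.0135) and H6pd, which opens the pathway in the endoplasmic reticulum, fell by 0.60 ± 0.12 (0.0218). None of 13 genes of pyruvate entry and the malate and aspartate shuttle passed in the limma fit. An unadjusted p under 0.05 was seen in 1 of them, beside 21.7% of all genes.

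Among regulators and hypoxia targets, 1 of 19 and 2 of 11 measured genes passed, where 4.30% of all genes fell and 2.64% rose. The regulator was Ppargc1a, a coactivator of mitochondrial genes, which fell by 0.64 log2 from a mean of 6.69 to 6.04; the mutant mean is under the background mark, so this size is uncertain. Of the hypoxia targets outside the member list, Adm (adrenomedullin), a vasodilator peptide, measured 6.74, 6.84 and 6.62 log2 on wild type 1, 2 and 5 and 7.79, 7.70 and 8.02 on mutants 3, 4 and 6, and rose by 1.10 ± 0.13 log2 (SE; 2.15-fold, limma adjusted p = 0.00165). Kdm3a, a histone demethylase, rose by 0.80 ± 0.14 log2 (SE; limma adjusted p = 0.0101), and 9 did not pass. The 2 rises among 11 stand beside 2.64% of all genes. An unadjusted p under 0.05 was seen in 5 of the 11, beside 21.7% of all genes. These 5 went both ways: Adm, Kdm3a and Ndrg1 (0.38 log2) were higher, and Ddit4 (-0.47) and Mxi1 (-0.28) lower. The median of the 11 was -0.01 log2.

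**Figure D5:**
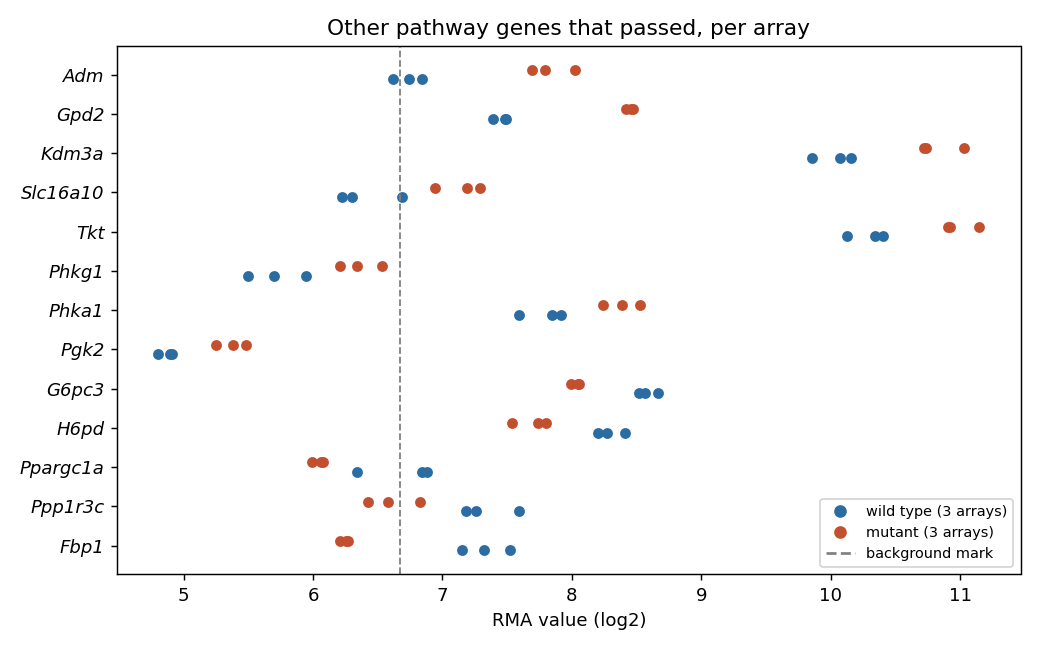
Values on each array (log2, horizontal axis) of the 13 genes outside the member list that passed the test, wild type in blue and mutant in red; the dashed line is the background mark of 6.67 log2. The groups do not overlap in any of the 13, and Phkg1 and Pgk2 lie below the mark on all arrays.

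The promoters of the members were searched for the core of the hypoxia response element, ACGTG, since that motif is known for many glycolytic genes, and for AACAAT, a core that SOX factors can bind. The RefSeq table (GRCm38.p6) held promoters for 37 of the 41 members, 51 in all, and the 250 bases before each start were read on both strands. ACGTG was found in 24 of 51, 47.1%, against 16.6% of all 32851 promoters of the table, and the E-box CACGTG, which contains it on both strands, in 11.8% against 6.02%. These shares count promoters, not genes, and promoters of a gene can overlap. Overlapping Aldoa promoters, for instance, share a match that is counted in each. No share per gene was taken. The member promoters are also richer in G and C, with a median of 59.2% against 52.4%, and the part of base composition was not tested. AACAAT was found in 3 of 51, 5.88%, against 9.42% of all. Among the members that fell, Slc2a1, Hk2 and Pygm hold ACGTG and Pgam2 does not, while Slc16a7 was not matched; Ldha, which did not pass, has the highest count of matches, 5, with each CACGTG counted on both strands. The sequences of these 3 that fell are shown beside that of Ldha, and the part of the motif in any change was not tested. Capitals mark ACGTG or its reverse complement, and no AACAAT lies in these sequences. They are on GRCm38.p6, 5′ to 3′ on the gene's strand: Slc2a1 at chr4:119108495-119108744 (+), Hk2 at chr6:82774455-82774704 (-), Pygm at chr19:6384158-6384407 (+) and Ldha at chr7:46845554-46845803 (+), the first of 2 starts.
Slc2a1: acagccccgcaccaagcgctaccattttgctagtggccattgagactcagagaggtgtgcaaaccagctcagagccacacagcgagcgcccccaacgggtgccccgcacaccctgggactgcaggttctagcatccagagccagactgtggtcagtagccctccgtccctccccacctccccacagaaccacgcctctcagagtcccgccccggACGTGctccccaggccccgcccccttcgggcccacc
Hk2: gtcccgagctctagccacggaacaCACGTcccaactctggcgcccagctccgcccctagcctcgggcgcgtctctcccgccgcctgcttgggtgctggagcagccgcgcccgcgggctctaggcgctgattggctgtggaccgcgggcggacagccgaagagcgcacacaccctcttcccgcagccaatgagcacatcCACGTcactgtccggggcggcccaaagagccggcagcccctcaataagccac
Pygm: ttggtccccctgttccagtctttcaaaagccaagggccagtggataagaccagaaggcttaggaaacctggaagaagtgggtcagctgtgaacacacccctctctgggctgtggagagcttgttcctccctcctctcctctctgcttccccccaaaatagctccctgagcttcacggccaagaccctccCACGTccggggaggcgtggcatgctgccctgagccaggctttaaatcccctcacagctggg
Ldha: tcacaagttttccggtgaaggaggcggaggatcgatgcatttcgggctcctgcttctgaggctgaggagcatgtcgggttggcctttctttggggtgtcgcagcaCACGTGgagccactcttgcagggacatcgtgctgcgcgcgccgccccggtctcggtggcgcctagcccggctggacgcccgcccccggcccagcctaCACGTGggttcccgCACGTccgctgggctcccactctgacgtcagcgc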

How the data were processed

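RNA of 6 pools of fetal gonads, 3 wild type and 3 mutant, was measured on Affymetrix arrays, from 300 ng of total RNA per array per the labels. The authors deposited log2 values per probe set, made with RMA per the submitters' processing notes; settings beyond that are not recorded in these sources. Because RMA makes the arrays' distributions equal, a general change in RNA content cannot be seen. The number of arrays limits the precision. Of 34760 rows, 6573 below the lowest annotated identifier were left out as the control block, which left 28187. The annotation gives 1 gene for 21640 of these, several genes for 1321 and no gene for 5226; 21553 matched the GRCm38.p6 gene table. The background mark is the 95th percentile of the means of 1208 receptor probe sets.

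Groups were compared with limma 3.58.1 (R 4.3.3; lmFit and eBayes, 2-sided), with Benjamini-Hochberg adjustment; the fit was tested on simulated data. Paralogue pairs were compared by exact permutation. All measured members are named, and of the other lists the genes that passed, at most 4 per list. Named beyond that are Pgk2, because a plot shows it, and Ndrg1, Ddit4 and Mxi1, to give their direction. Members and lists were chosen with earlier results of these data known, so no p is adjusted over them alone. Alternatives covered normalization, filters, moderation, array weights, numbers 5 and 6 as a block, probe set choice, thresholds and arrays left out. Promoters are from RefSeq. Figures were drawn with matplotlib 3.10.9.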

Additional observations from a re-analysis of the deposited data

How the results depend on the processing

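No paired analysis was possible because wild type (numbers 1, 2 and 5) and mutant (3, 4 and 6) share no replicate number. Among members, 5 fell and 0 rose; 0 fell at a threshold of 0.01, with all rows of the table, among numbers 1 to 4 alone, and without wild type 5 and mutant 4 together (added after seeing the data), and 0 to 3 fell with 1 array left out. Under 6 settings (a further quantile normalization, either filter on dim probe sets, trend and robust, array weights, and numbers 5 and 6 as a block) 1 member, Pygb, rose. Among the other pathway genes, 8 rose and 5 fell. These counts were 2 and 1 at a threshold of 0.01, 4 and 2 with all rows, 5 and 2 among numbers 1 to 4, and 3 and 1 without wild type 5 and mutant 4. The falls numbered 8 with array weights, with trend and robust and with numbers 5 and 6 as a block, and the rises 5 among the brighter probe sets; with 1 array left out 3 to 6 rose and 1 to 3 fell. None of the 5 called members changed sign in any setting run. Of the members not called, 12 changed sign at least once, and none of the values of turned sign passed. Hk1 gave -0.0386 with the mean of its probe sets and -0.20 on its own chromosome, Slc2a8 -0.000576 with centred arrays, Slc2a2 0.00744 with array weights, 0.17 among numbers 1 to 4 and 0.20 without wild type 5 and mutant 4, Slc2a3 -0.0514 and Pdk2 -0.0079 among numbers 1 to 4, and Hk3 0.0228, Pfkp 0.0012 and Tpi1 0.0469 without wild type 5 and mutant 4. With 1 array left out, the differences ran from -0.00886 to 0.0603 (Slc2a8), -0.19 to 0.17 (Slc2a2), -0.0721 to 0.17 (Slc2a3), -0.17 to 0.0422 (Hk3), -0.20 to 0.0152 (Pfkl), -0.13 to 0.0147 (Pfkp), -0.26 to 0.13 (Eno2), -0.00256 to 0.20 (Pfkfb4) and -0.19 to 0.00312 log2 (Pygl), and from -0.15 to 0.0486 for Pfkl over Pfkp. Nr5a1 was 0.056 with quantile normalization, 0.0222 with array weights, 0.0317 among numbers 1 to 4 and -0.0938 to 0.11 with 1 array left out. The cause of these moves was not tested; fits with fewer arrays have fewer samples.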
